A study of Ovis aries with 6 samples.

Results

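FLT1, TIE1, VWF, ENG, EGFL7, CD34 and CAV1 are 7 genes named in textbooks as markers of blood vessel lining and of progenitor cell surfaces. They were followed through cultured sheep (Ovis aries) cells of 2 kinds, epidermal stem cells from skin and epithelial cells from the cornea. Their probes were found by name: every gene probe was taken whose gene name or description in the array's annotation names one of the 7. This gave 14 of the 15008 gene probes on the array, and the 7 genes are among 911 with a symbol here. FLT1 had 5 of them, CAV1 had 3, TIE1 had 2, and the other 4 genes had 1 each. Dim probes were retained with the scanner software's flag for a spot well above its background, here called above background.

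Each kind of cell was represented by 3 samples, which the design text of the series calls cell lines. Every sample was hybridised to 1 single-colour (Cy3) array. No treatment, allele, genetic change or age is given for either kind, and all cells were adherent cultures lifted with trypsin before RNA extraction. Nothing in the labels says whether the 3 lines of a kind came from separate animals, so the p-values speak of the scatter among these particular cultures, part or all of which may be technical.

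Vessels are lined by endothelial cells, whose growth is steered by VEGF ligands acting on receptor kinases and by angiopoietins acting on the TIE2 receptor. FLT1 is the receptor VEGFR-1, which binds VEGF tightly, signals weakly and also exists as a secreted form that captures the ligand. TIE1 is the partner receptor of TIE2. VWF is the large plasma glycoprotein that endothelium stores and releases to tether platelets, and EGFL7 is a matrix protein secreted by endothelium. ENG is a co-receptor for TGF-beta and BMP ligands. CD34 is a sialomucin of blood-forming progenitors and capillaries that also marks stem cells of the mouse hair follicle bulge. CAV1 is the main coat protein of caveolae, the small pits of the plasma membrane, and is made by epithelial and stromal cells as well as by endothelium.

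The probes are DNA oligomers laid down on the array, and they are shown because the readings below depend on which stretch of a transcript was probed. Each is written 5′ to 3′ as the array files give it. Capitals mark the bases that a pair of overlapping probes of the same gene share.
FLT1, A_70_P026631: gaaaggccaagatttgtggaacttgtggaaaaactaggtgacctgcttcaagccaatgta
FLT1, A_70_P026321: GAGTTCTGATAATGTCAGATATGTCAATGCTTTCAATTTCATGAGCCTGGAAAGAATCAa
FLT1, A_70_P026322: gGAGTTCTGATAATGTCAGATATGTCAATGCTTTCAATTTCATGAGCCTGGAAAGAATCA
FLT1, A_70_P026601: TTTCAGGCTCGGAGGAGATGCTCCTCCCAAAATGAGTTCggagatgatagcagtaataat
FLT1, A_70_P026602: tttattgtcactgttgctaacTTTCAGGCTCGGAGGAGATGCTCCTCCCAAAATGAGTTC
TIE1, A_70_P002716: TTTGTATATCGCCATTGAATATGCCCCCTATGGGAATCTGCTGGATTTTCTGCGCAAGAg
TIE1, A_70_P002717: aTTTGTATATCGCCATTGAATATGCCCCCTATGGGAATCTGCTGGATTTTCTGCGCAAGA
VWF, A_70_P058626: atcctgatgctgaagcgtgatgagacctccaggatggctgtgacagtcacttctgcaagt
ENG, A_70_P027501: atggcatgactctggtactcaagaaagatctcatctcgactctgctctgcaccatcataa
EGFL7, A_70_P011156: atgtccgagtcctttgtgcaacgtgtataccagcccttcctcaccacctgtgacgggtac
CD34, A_70_P021641: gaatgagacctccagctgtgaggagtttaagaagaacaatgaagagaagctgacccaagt

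The first FLT1 probe shares no stretch with the other 4, and it is the probe that stands for the gene. The next pair of FLT1 probes shares 59 bases and is shifted by 1 base. The last pair shares 39 bases at an offset of 21 and is annotated as the soluble form of VEGFR-1. The TIE1 pair again shares 59 bases with a shift of 1. The 3 CAV1 probes share no stretch, and their letters are not shown. The files give no genome position for any of these probes.

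Signals are given as normalized log2 signal, which is the log2 of the scanner software's processed intensity minus the 75th percentile of that over the gene probes of the array. A value of 0 thus lies at the array's own 75th percentile, and more negative values are dimmer. Each probe has its own brightness, so differences between the kinds of cell are taken within a probe. Where probes are set side by side or summed, their levels do not give the relative amounts of their RNAs. A probe was kept if 3 or more of the 6 arrays showed it above background. Where a gene had several kept probes, the one with the highest mean stands for it. Differences are corneal minus epidermal, tested with limma over all genes and unnamed transcripts at an adjusted p of 0.05. Where no array of a group showed a gene above background, only a bound on the fold is given, written as "at least" so many fold. Such a bound applies to the processed signal. It allows neither for scatter among arrays nor for another way of removing background.

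The arrays differed in how much they detected. Between 11785 and 12414 of 15208 gene spots were above background in the epidermal arrays and between 11091 and 11539 in the corneal arrays. The share was 80.2% ± 2.36 (SD, n = 3) against 74.1% ± 1.56 (SD, n = 3), for which an exact two-sided permutation test gave p = 0.1, the lowest value that 6 arrays in 2 groups of 3 allow. All 6 arrays came from 1 slide and 1 scan, with epidermal arrays in the first slide row and corneal arrays in the second row, so slide row and cell kind cannot be told apart. No gene spot was saturated. The precision of every value is limited by 3 arrays a group.

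In the corneal cells 5 of the 7 genes were lower (FLT1, TIE1, VWF, CD34 and CAV1), none was higher, and ENG and EGFL7 did not pass the test. Of 11231 genes and transcripts tested, 32.7% were called lower and 26.7% higher, or 59.4% in either direction. With no scaling between arrays the share of higher genes among those called was 22.2%, against 45.0% with scaling, and the median change of all genes was −0.21 against −0.04. TIE1, VWF and CD34 were above background on all 3 epidermal and no corneal array, a pattern of 2.63% of the genes tested. These 3 passed the filter on dim probes through the epidermal arrays alone, so they had to read lower and their calls add nothing to the count. Among the 4 genes above background on all 6 arrays, FLT1 and CAV1 were lower, while 32.4% of all such genes were called lower and 61.1% were called in either direction. In bulk RNA, fewer cells of a type and less RNA per cell cannot be told apart.

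**Figure D1:**
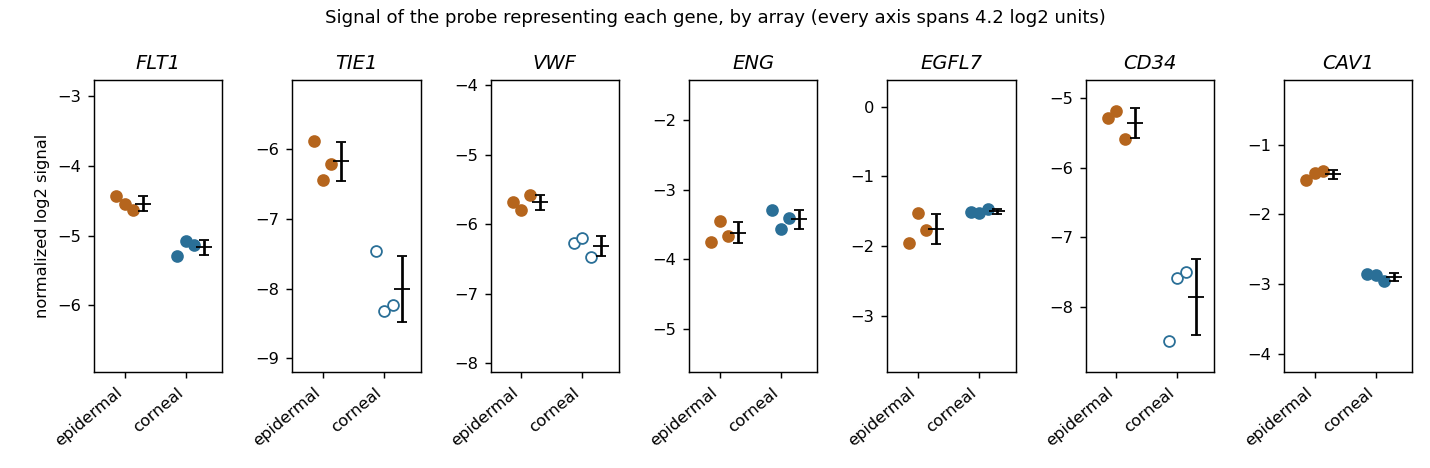
Normalized log2 signal (vertical axes, each spanning 4.2 log2 units) of the probe representing each gene, by array. Orange points are the 3 epidermal arrays and blue points the 3 corneal arrays, open where the spot was not above background, and bars show mean ± SD. The groups are apart for FLT1, TIE1, VWF, CD34 and CAV1 and overlap for ENG and EGFL7.

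Of the receptors, FLT1 read −4.43, −4.55 and −4.64 on the epidermal arrays, in the order of replicates 1 to 3. On the corneal arrays, given in the same order here and below, it read −5.29, −5.08 and −5.14. All 6 spots were above background, and every corneal value lay below every epidermal value. Such a separation with corneal arrays lower held for 36.9% of all genes with 6 values. FLT1 fell by 0.63 ± 0.08 (SE) on the log2 scale, 1.55-fold, with limma's adjusted p = 0.00105.

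The 4 further FLT1 probes also had lower fitted values in corneal cells, but all were dimmer against background. A_70_P026602, from the soluble form, stood above background on all 3 epidermal arrays but on 1 of 3 corneal arrays. It read −5.81, −5.57 and −5.69 in epidermal and −5.87, −6.34 and −6.45 in corneal replicates. The groups lay apart by a small margin at corneal replicate 1. Its difference was −0.53 with limma's adjusted p = 0.0345 among kept probes, 33.0% of which were called lower when each was fitted on its own, and 0.052 when no filter was used. The remaining 3 probes passed background on 1 epidermal array each and on no corneal array, and were not kept. Their fitted differences were −0.57 for A_70_P026322, −1.25 for A_70_P026321 and −1.29 for A_70_P026601, and no bound on a fold could be given. The groups overlapped at A_70_P026322.

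TIE1, by contrast, was at the edge of detection in epidermal cells and was not above background in corneal cells. A_70_P002717 read −5.87, −6.44 and −6.21 in epidermal and −7.46, −8.33 and −8.24 in corneal replicates. All 3 epidermal spots and no corneal spot were above background, the value of corneal replicate 2 is a software surrogate for a dim spot, and the groups did not overlap. The fitted change was −1.83 ± 0.27 (SE; limma's adjusted p = 0.00217). TIE1 passed the filter through the epidermal arrays alone, so that p-value is no test of the direction. The drop was at least 1.12-fold. That bound is small because it rests on the lowest signal counted as above background on each corneal array. This lay between −6.59 and −6.14, close to the epidermal level of TIE1.

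The shifted twin, A_70_P002716, read −3.13, −6.59 and −6.50 in epidermal and −8.42, −8.05 and −8.09 in corneal replicates. On epidermal replicate 1 it stood 2.75 log2 units above the other TIE1 probe, although both share 59 bases and were read from the same RNA. On the other 5 arrays the twins differed by 0.15 to 0.96. The pixels of that spot had an SD of 75.4 and a mean intensity of 170, while the other 11 TIE1 spots had pixel SDs of 8.54 to 15.4 and means of 53.1 to 81.1. The scanner software rejected 8 of its pixels as high and did not mark the spot as an outlier. A_70_P002716 was above background on 2 epidermal arrays and was not kept, and its 3 corneal values are surrogates. When probes were not filtered it represented TIE1, and its change of −2.78 did not pass limma's test (adjusted p = 0.0744).

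**Figure D2:**
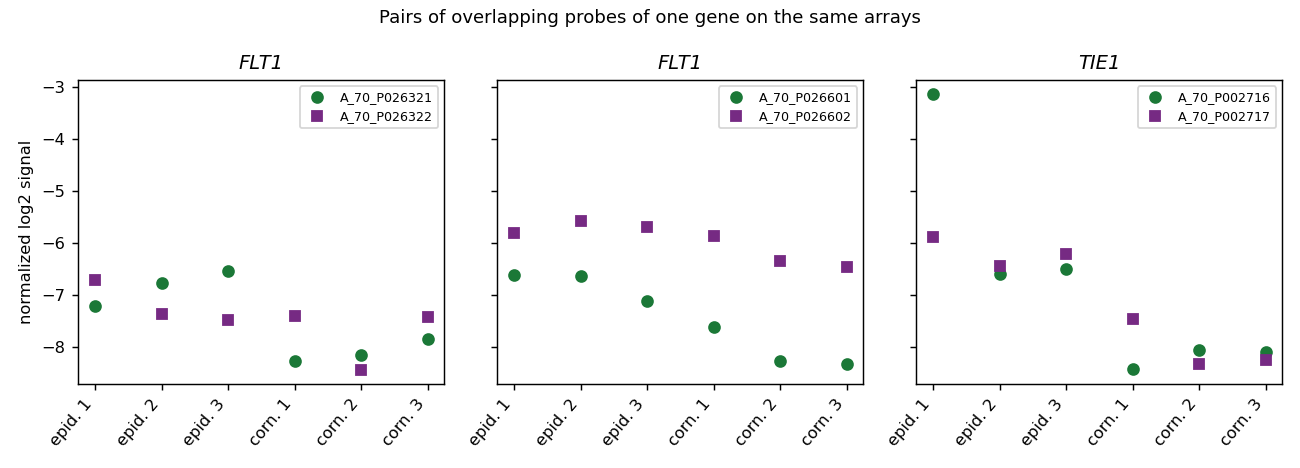
Normalized log2 signal (vertical axis) of 3 pairs of overlapping probes on each of the 6 arrays (horizontal axis), with circles for one probe of a pair and squares for the other. The TIE1 twins are 2.75 log2 units apart on epidermal replicate 1 and at most 0.96 apart elsewhere, and the probes of the soluble FLT1 form are 0.80 to 1.93 apart on every array. Some corneal values are software surrogates for dim spots.

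In the soluble FLT1 pair, which shares 39 bases, A_70_P026601 read 0.80 to 1.93 log2 units below A_70_P026602 on all 6 arrays. A_70_P026601 was above background on 1 array, and its values on corneal replicates 2 and 3 are surrogates. The FLT1 pair that shares 59 bases differed by 0.29 to 0.94, with A_70_P026321 the brighter on 3 arrays and the dimmer on the other 3. Its value on corneal replicate 2, where the pair differed by 0.29, is a surrogate. The 5 FLT1 probes differ in brightness and are not replicates, and whether they read the same form of the transcript was not tested.

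ENG, the TGF-beta co-receptor, read −3.75, −3.45 and −3.66 in epidermal and −3.30, −3.57 and −3.41 in corneal replicates. All spots were above background, and the groups overlapped. The difference of 0.20 ± 0.10 (SE) did not pass limma's test (adjusted p = 0.154), with group means of −3.62 ± 0.15 (SD, n = 3) and −3.42 ± 0.14 (SD, n = 3).

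Of the secreted proteins, VWF read −5.69, −5.80 and −5.57 in epidermal and −6.27, −6.19 and −6.48 in corneal replicates. Only the epidermal spots were above background, and the groups lay apart. The fitted change was −0.63 ± 0.09 (SE; limma's adjusted p = 0.0022), and in the processed signal the drop was at least 1.46-fold. VWF too passed the filter through the epidermal arrays alone, so that p-value is no test of the direction. When the background was instead modelled from local spot background with an offset of 50, the VWF difference was 0.05 and passed no test (adjusted p = 0.375), so the direction of VWF depends on how background was removed. FLT1 at −0.06 (adjusted p = 0.282) and TIE1 at −0.09 (adjusted p = 0.276) lost their calls in the same setting, which left out spots of extreme local background.

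EGFL7 was the brighter of the secreted pair against background, with all 6 spots above it. It read −1.96, −1.52 and −1.78 in epidermal and −1.51, −1.53 and −1.46 in corneal replicates. Epidermal replicate 2 lay among the corneal values, and the other 2 epidermal values lay below them. The difference of 0.25 ± 0.11 (SE) did not pass limma's test (adjusted p = 0.0991). Without epidermal replicate 2 it was 0.37 and passed (adjusted p = 0.00923), so 1 array decided that call.

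CD34, the progenitor surface protein, read −5.28, −5.18 and −5.59 in epidermal and −8.49, −7.59 and −7.50 in corneal replicates. The epidermal spots were all above background, no corneal spot was, and the groups lay far apart. The value of corneal replicate 1 is a surrogate that the scanner software set for a dim spot. The fitted change was −2.51 ± 0.29 (SE; limma's adjusted p = 0.000782), and the drop was at least 1.98-fold. As for TIE1 and VWF, the filter was passed through the epidermal arrays alone, so that p-value is no test of the direction. The fitted size reads differences between values at the background and is no estimate of the fold. With background modelled from local spot background and the offset of 50, the change was −0.17 (adjusted p = 0.0436).

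CAV1 gave the most precise difference of the 7. Its representing probe, A_70_P016516, belongs to a consensus transcript that the array annotation describes as caveolin-1. It read −1.50, −1.40 and −1.37 in epidermal and −2.86, −2.87 and −2.96 in corneal replicates, with all 6 spots above background and the groups well apart. CAV1 fell by 1.47 ± 0.05 (SE) on the log2 scale, 2.77-fold, with limma's adjusted p = 7.21e-06. Of all genes tested, 3.97% were called lower by at least 2-fold.

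Both further CAV1 probes, which carry the gene symbol itself, were dim, and their fitted values were lower in corneal cells. A_70_P039286 read −5.74, −5.37 and −5.84 in epidermal and −7.85, −7.79 and −7.66 in corneal replicates, and its corneal spots were not above background. Its fitted change was −2.12, at least 1.61-fold lower. This probe passed the filter through the epidermal arrays alone, so its direction adds nothing to that of the representing probe. A_70_P031201 read −5.67, −5.24 and −4.33 in epidermal and −5.96, −6.71 and −6.82 in corneal replicates. One corneal spot was above background, and its change was −1.42 with limma's adjusted p = 0.027 among kept probes. The groups did not overlap at either probe. At the representing probe and A_70_P031201, which had corneal spots above background, the fitted changes were −1.47 and −1.42.

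**Figure D3:**
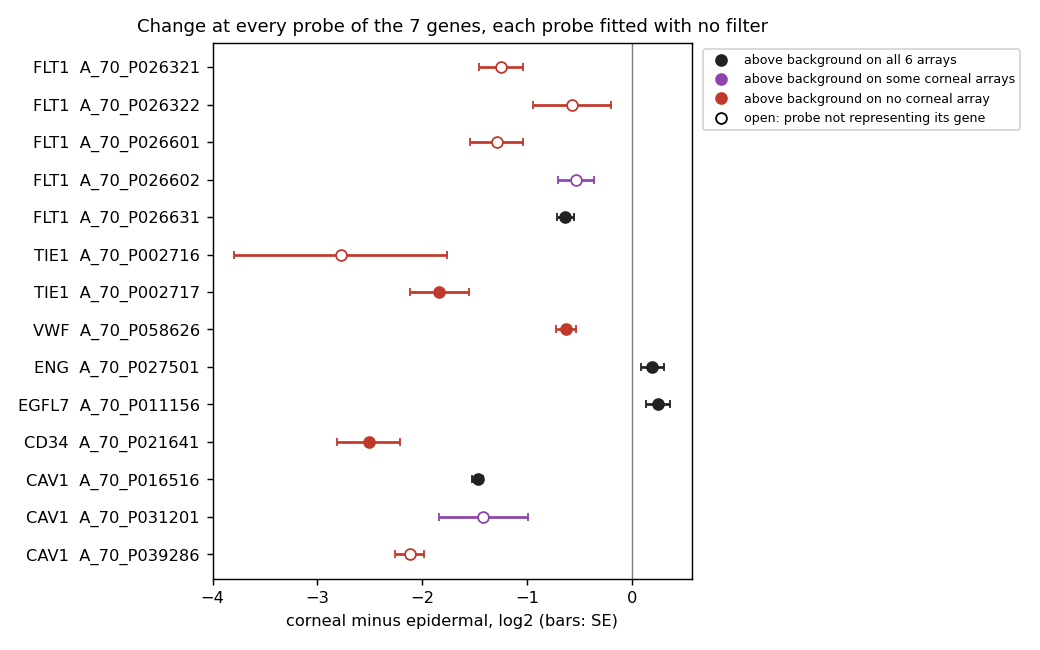
Fitted difference, corneal minus epidermal in log2 units (horizontal axis, bars are SE), at each of the 14 probes when every probe was fitted with no filter. Filled points represent their gene, and colour gives on which arrays a probe was above background. Of the 14 points, 12 lie below 0, and the 4 black points, above background on all 6 arrays, are FLT1, ENG, EGFL7 and CAV1.

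Counted by probe, 11 of the 14 had no overlap between groups with corneal values lower, beside 31.8% of all probes with 6 values, and 3 overlapped. Fitted with no filter, 9 of the 14 were called lower, beside 25.5% of all probes. Only 4 of the 14 were above background on all 6 arrays, and 8 were above it on no corneal array. Those 8 rose above background on epidermal arrays alone, so lower corneal values at them were largely fixed beforehand. Neither count can therefore be read as an excess over the share of all probes. The 14 probes stand for 7 genes and include 3 overlapping pairs, so they are not independent.

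**Figure D4:**
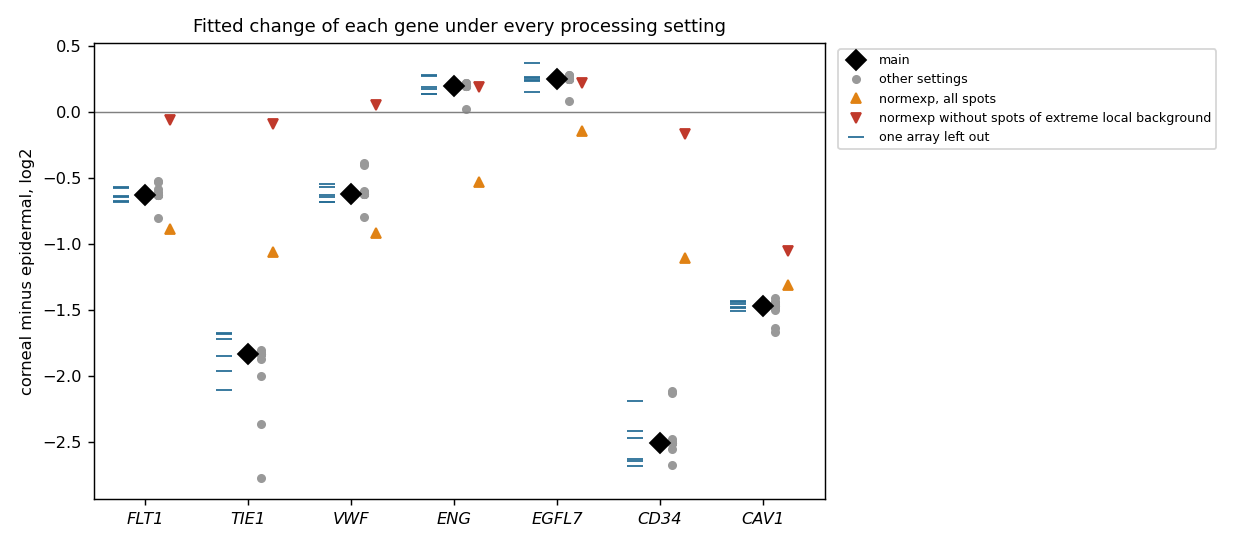
Fitted difference of each gene, corneal minus epidermal in log2 units (vertical axis), in the main fit (black), with 1 array left out (blue dashes), under both versions of the normexp background correction (triangles) and under all other settings (grey). CAV1 stays between −1.05 and −1.67 in every setting, and VWF reaches 0.05 in one version of normexp.

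The likeness of other genes to each member was measured over the 6 arrays as the root mean square distance, after centring each gene on its own mean, among 681 genes with a symbol. PLAU (0.073) and PGD (0.085) were nearest to FLT1. SERPINF1 and HOXC6 (both 0.30) were nearest to TIE1, and RILPL2 (0.095) and EDNRA (0.098), an endothelin receptor, to VWF. The zinc transporter gene SLC39A13 was nearest to both ENG (0.031) and EGFL7 (0.074), followed by ITGA5 (0.083) for ENG. HOXC13 (0.25) was among the 2 nearest to CD34 and was, like CD34, above background on 3 arrays. IL1A (0.059) and FABP5 (0.064) were nearest to CAV1. With only 2 kinds of cell this measure follows mainly the size of the difference between them.

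Lists of 112 related genes gave a wider view of the same pathways. Of the 112 genes, 48 had a probe named so here and 35 of these were kept, of which 12 were higher and 10 lower in corneal cells. That is 62.9% called, beside 59.4% of all genes, with a median change of 0.10 beside −0.04. The counts by list below stand beside 26.7% of all genes called higher and 32.7% called lower.

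Of 3 vessel growth ligands with a named probe, VEGFA and ANGPT1 were kept and both were lower, beside 32.7% of all genes. ANGPT2 was above background on at most 1 epidermal array and no corneal array at any of its 4 probes and was not kept. VEGFA, the main ligand of FLT1, read 2.61, 2.69 and 2.65 in epidermal and 2.37, 2.36 and 2.31 in corneal replicates. It fell by 0.30 ± 0.04 (SE) on the log2 scale, with limma's adjusted p = 0.000865. ANGPT1, the angiopoietin that activates TIE2, read −2.28, −2.41 and −2.40 in epidermal replicates against −3.31, −3.28 and −3.35. It fell by 0.95 ± 0.05 (SE), with limma's adjusted p = 2.54e-05. The groups were apart for both genes.

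Endothelial receptors did not move together: of 8 tested, 1 was higher, 2 were lower and 5 did not pass, with a median of 0.05. The neuropilins, co-receptors of VEGF and semaphorins, went opposite ways. NRP1 read 1.45, 1.41 and 1.50 in epidermal and 2.74, 2.76 and 2.75 in corneal replicates and rose by 1.30 ± 0.03 (SE; limma's adjusted p = 2.77e-06). NRP2 read −2.75, −2.66 and −2.44 against −3.60, −3.48 and −3.74 and fell by 0.99 ± 0.10 (SE; limma's adjusted p = 0.000519). TGFBR2, the TGF-beta type II receptor, fell by 0.18 ± 0.03 (SE; limma's adjusted p = 0.00449) at its representing probe, but its 2 kept probes gave opposite signs, −0.18 and 0.18. KDR, the chief VEGF receptor of endothelium, and TEK, which is TIE2, were not kept.

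The junction and adhesion genes that define endothelium were scarcely detected. Of 6 with a probe, ICAM1 alone was kept, an adhesion molecule that many cell types make, and its difference of −0.10 ± 0.04 (SE) did not pass (limma's adjusted p = 0.0566). CDH5 and PECAM1 were above background on none of the 6 arrays, and neither was VCAM1. Of the blood vessel transcription factors, EPAS1 was the gene with a probe named here, and it rose by 0.98 ± 0.08 (SE; limma's adjusted p = 0.000249). In the caveolae list PACSIN2 was the gene with a probe named here. Most probes of the array carry no symbol, so other genes of both lists may be on it unnamed. The PACSIN2 difference was 0.09 ± 0.03 (SE) and did not pass (limma's adjusted p = 0.0508), and it was −0.08 with no scaling between arrays. No other gene of the caveolae list was tested, so whether such genes changed with CAV1 is not known.

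Of 15 genes of haemostasis and vascular tone, 10 had a named probe and 7 were kept, while F8, NOS3 and ACE were not. All 7 kept genes were called, 5 higher and 2 lower, with a median of 0.63. Among all genes tested, 59.4% were called, 26.7% higher and 32.7% lower. EDN1, the vasoconstrictor endothelin-1, read −6.85, −6.58 and −6.67 in epidermal and −4.63, −4.82 and −4.97 in corneal replicates. It rose by 1.89 ± 0.11 (SE; limma's adjusted p = 5.37e-05), from spots above background on 2 of 3 epidermal arrays. ECE1, which cleaves its precursor, rose by 0.76 ± 0.11 (SE; limma's adjusted p = 0.00185). PLAU, the plasminogen activator urokinase, fell by 0.59 ± 0.04 (SE; limma's adjusted p = 5.75e-05), and F3, tissue factor, fell by 0.43 ± 0.09 (SE; limma's adjusted p = 0.00737).

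Among surface markers used for progenitor cells, 2 of 5 were higher, 1 was lower and 2 did not pass. ABCG2, the efflux pump that marks side-population cells, read −2.15, −2.15 and −2.17 in epidermal and −0.92, −0.88 and −0.90 in corneal replicates. It rose by 1.26 ± 0.03 (SE; limma's adjusted p = 1.56e-06). ITGB1, the beta-1 integrin, rose by 0.15 ± 0.03 (SE; limma's adjusted p = 0.00602), a difference that was −0.02 with no scaling. PDGFRA, a receptor of mesenchymal cells, fell by 0.51 ± 0.03 (SE; limma's adjusted p = 8.02e-05).

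Ligands and signal carriers near ENG were split, with 3 of 10 higher, 3 lower and 4 that did not pass. BMP4 rose by 1.55 ± 0.03 (SE; limma's adjusted p = 9.51e-07), TGFBR1 by 0.92 ± 0.11 (SE; limma's adjusted p = 0.000984) and TGFB2 by 0.63 ± 0.12 (SE; limma's adjusted p = 0.00549). TGFB1 fell by 0.83 ± 0.04 (SE; limma's adjusted p = 1.80e-05). The signal carriers SMAD4 and SMAD5 fell by 0.35 ± 0.05 and 0.36 ± 0.07 (SE; limma's adjusted p = 0.00153 and 0.00711). ENG itself lay between these, with no call.

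**Figure D5:**
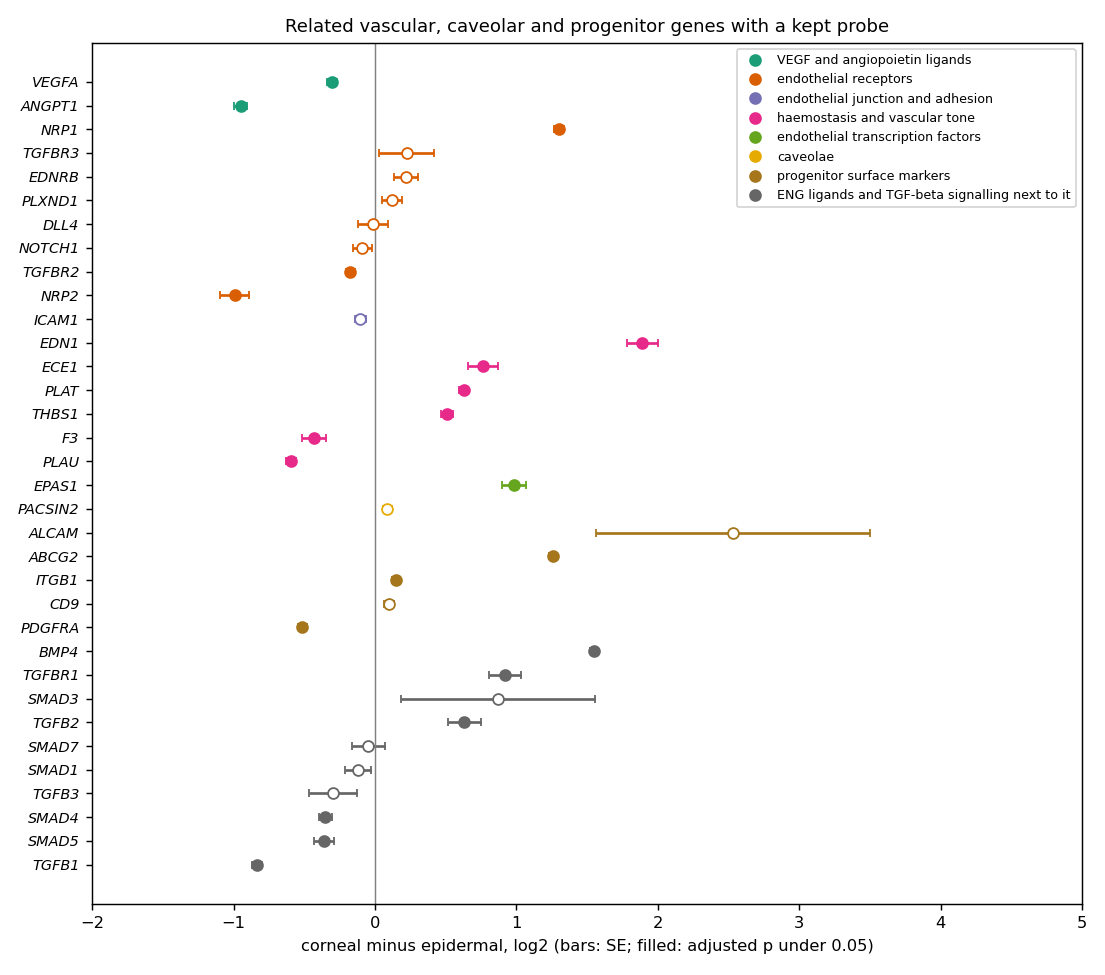
Fitted difference, corneal minus epidermal in log2 units (horizontal axis, bars are SE), of the related genes with a kept probe, coloured by list, leaving out a gene not reported here. Filled points passed an adjusted p of 0.05. The vessel growth ligands VEGFA and ANGPT1 lie below 0, EDN1, ECE1, PLAT and THBS1 of the haemostasis and vascular tone list lie above it and PLAU and F3 below, and the receptor, progenitor and TGF-beta lists spread to both sides.

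Markers of other cell types were read on the same arrays, beside the member genes. Outside the members, 4 of 7 endothelial markers had a probe. CDH5, PECAM1 and TEK were above background on none of the 6 arrays, and KDR was above it on 2 epidermal arrays at 1 of its 3 probes. The summed endothelial signal was 0.0160 to 0.0335 in epidermal and 0.0134 to 0.0143 in corneal arrays, in units of each array's 75th percentile. On corneal arrays it came from spots not above background alone, and on epidermal arrays only that KDR probe rose above it. The sum therefore does not compare endothelial RNA between the kinds of cell. Of 10 markers of blood cells and macrophages, 3 had a probe, and their summed level was 22.4 to 23.3 in epidermal and 14.6 to 14.9 in corneal arrays. Most of that came from CD14, a lipopolysaccharide co-receptor, which fell by 0.66 ± 0.03 (SE; limma's adjusted p = 2.10e-05). The part of blood cells in the CD34 difference was not tested.

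The labelled identities were only partly visible in defining markers. Of 14 keratinocyte markers 6 had a named probe, and 4 of these were above background on all 3 epidermal arrays. TP63 was above background on none of the 6 arrays, KRT14 on 2 epidermal arrays and no corneal array, and KRT15 on all 3 epidermal arrays but 1 of 3 corneal arrays. The keratinocyte sum was 16.5 to 17.2 in epidermal and 11.5 to 11.8 in corneal arrays, carried by PPL, which fell by 0.54 ± 0.03 (SE; limma's adjusted p = 4.55e-05). SFN, above background on all 6 arrays, fell by 0.35 ± 0.08 (SE; limma's adjusted p = 0.0139), and DSP, above it on 1 corneal array, differed by −0.36 ± 0.19 (SE) and did not pass (limma's adjusted p = 0.149). PAX6, the eye field factor, was above background in both kinds and rose by 0.31 ± 0.07 (SE; limma's adjusted p = 0.0138), and KRT19 was above it on none. Of 10 mesenchymal markers with a probe, all were above background on the 3 epidermal arrays and 9 on the 3 corneal arrays, and 6 were lower and 1 higher in corneal cells. COL3A1, a fibrillar collagen, fell by 4.51 ± 0.04 (SE; limma's adjusted p = 1.62e-07), and the matrix protein POSTN, above background on no corneal array, was at least 59.7-fold lower. FN1, fibronectin, rose by 0.96 ± 0.03 (SE; limma's adjusted p = 7.07e-06). VIM, COL1A2 and DCN were not called. Their means were 8.63, 7.20 and 8.05 in epidermal and 8.58, 7.12 and 8.13 in corneal arrays. The summed mesenchymal levels were 1093 to 1329 in epidermal and 1046 to 1063 in corneal arrays. The smooth muscle and pericyte genes CNN1 and DES rose by 1.08 ± 0.04 and 1.21 ± 0.09 (SE; limma's adjusted p = 9.75e-06 and 0.000157). Their summed level was 5.39 to 5.69 in epidermal and 11.3 to 12.1 in corneal arrays, and the part of such cells in the differences of the 7 genes was not tested.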

How the data were processed

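RNA of 3 epidermal and 3 corneal samples was measured on single-colour Agilent sheep arrays. The deposited scanner files hold linear intensity values that the authors made with the software Agilent Feature Extraction 10.7, as the submitters' processing notes list it. Processed signals are net of background and detrended array by array, per the file headers, which record surrogates for dim spots and no scaling across arrays. A second deposited table of the authors holds log2 values, which matched quantile-normalized processed signals, has a median of 7.232 in each column, and was used as an alternative.

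Control spots and outlier spots (values of 41 probes) were left out. From the log2 processed signal the array's own 75th percentile was subtracted, and 11742 of 15008 probes above background on at least 3 of 6 arrays were kept. Probes were named from the arrays' annotation and a RefSeq table of ARS-UI_Ramb_v3.0, used for names alone, and 1472 received a symbol. Differences were fitted with limma 3.58.1 in R 4.3.3 (lmFit, eBayes) with no block and Benjamini-Hochberg adjustment, and the script was tested on simulated data. An "at least" fold divides the mean of the brighter group by a stand-in for the dimmer one. On each array the stand-in is the lowest signal that counted as above background, or the probe's own signal if that was higher. Alternatives covered scaling, background correction (normexp, offset 50), filters, probe choice, naming, the replicate block and single arrays left out.

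The 7 genes and the related lists were chosen with earlier results of these data known. Named genes are the 7, up to 3 called genes of each list in each direction by size of change (or the measured genes of a list where none was called), the 2 nearest genes of each member, and defining markers. A few genes that this rule names are not reported here.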

Additional observations from a re-analysis of the deposited data

How the results depend on the processing

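The 7 genes kept their direction and their side of the threshold under most settings, and the exceptions follow. The normexp correction with all spots, in which epidermal replicate 1 had 7 spots of extreme local background, left no gene of the 7 called: differences were −0.89 for FLT1, −1.07 for TIE1, −0.92 for VWF, −1.11 for CD34 (each adjusted p = 0.579) and −1.32 for CAV1 (0.0618), and ENG at −0.53 and EGFL7 at −0.14 turned sign, as did EDN1 (−0.41), PACSIN2 (−0.079), TGFBR1 (−0.0084) and TGFB2 (−0.46). It called 202 genes lower and 186 higher in all, and 1 and 2 of the related genes, and moved the median of all genes to −0.29. Without those spots, FLT1 (−0.063) and TIE1 (−0.093) lost their calls, VWF turned to 0.052, 2 of the 7 stayed lower, and 19 related genes were called higher. The offset of 50 compresses differences of dim probes by construction. Requiring all 6 arrays above background left 2 of the 7 lower because fewer genes are tested. With no filter TIE1 read −2.78 (adjusted p = 0.0744), through its other probe. Naming by gene symbol alone left 1 lower, CAV1 at −1.42 (adjusted p = 0.0275), since TIE1, VWF and CD34 carry other names in the files and the FLT1 probes named by that symbol were not kept. No scaling gave 1438 higher genes and turned PACSIN2 (−0.085) and ITGB1 (−0.023), and the mean of probes put TGFBR2 at 0.00021. With 1 array left out, EGFL7 ran from 0.15 to 0.37, with a call only without epidermal replicate 2, so 0 to 1 genes were higher and 5 lower each time. The same replicate numbers did not pair samples (correlations of −0.02 to 0.04), and the replicate block gave 3321 genes lower and 2698 higher and changed no call of the 7. A slide or scan block was not run, as there is 1 of each. Signal over background limits TIE1, VWF and CD34 to bounds.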
